A study of Mus musculus with 12 samples.

Results

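The comparison described here sets an oncogene against a DNA-damaging drug in primary mouse neurons. For each gene it takes the change seen with H-Ras(G12V) over mCherry and subtracts the change seen with etoposide over DMSO. A positive difference means that the oncogene effect, with its sign, was above the etoposide effect. A rise with the oncogene, a fall with the drug or both can give it. Members are the genes listed in both deposited tables with a mean of at least 1 FPKM (sequenced fragments per kilobase of transcript, scaled to the depth of the library) in each table. There are 12179 such genes, of 17416 in both tables and 18607 in either, and all 12 libraries of the series enter the comparison. A gene can pass this level through a single group, so the counts below cover genes that passed and not every gene of a list.

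All 12 libraries came from primary neurons of C57BL/6 mice at day 10 of treatment, with 3 libraries in each of 4 groups. The oncogene model is over-expression of H-Ras(G12V), a RAS protein locked in its active state, delivered by an adeno-associated virus. Its control is mCherry, a fluorescent protein, on a wild-type genotype. The chemical model is etoposide on a wild-type genotype, with its solvent DMSO as control. The series design asks which pathways these models of neuronal ageing share, naming them oncogene-induced senescence (OIS) and stress-induced premature senescence (SIPS). The labels give no viral promoter or serotype, no etoposide dose and no statement on separate cultures or animals. All p-values below thus reflect variation among these libraries alone, and that variation could be technical. For the etoposide and DMSO libraries the labels contradict each other: titles and library names give one group, and the treatment tag gives the other. Columns of the deposited table follow the title, and every direction given here holds for the libraries titled etoposide. With the groups of the treatment tag, 150 genes passed, 103 higher and 47 lower.

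Active RAS signals through RAF, MEK and ERK kinases to growth genes, and in many cell types sustained signalling ends in arrest through the INK4 inhibitors and p53. Etoposide traps topoisomerase II on DNA, which leaves double-strand breaks, activates p53 and is most harmful to cells that replicate their DNA. Neurons do not divide, but cultures of primary neurons usually hold dividing glial precursors, astrocytes and some fibroblasts. In bulk RNA, fewer cells of a type and less RNA per cell cannot be told apart, which applies to every cell type marker below.

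The libraries held 11829 to 12728 genes at 1 FPKM or more. Rank correlations over the 17416 shared genes set a pair of libraries apart. Etoposide library 3 had correlations of 0.985, 0.986 and 0.968 with the DMSO libraries and of 0.917 and 0.945 with etoposide libraries 1 and 2. Library 3 of the mCherry group had 0.963 and 0.961 with the other mCherry libraries, which had 0.994 with each other, and 0.977 with DMSO library 1. Neuronal markers were present throughout, with Snap25, a synaptic fusion protein, between 104 and 564 FPKM. Markers of glia were present as well. The row for Hras read 38.4, 51.6 and 33.5 FPKM with H-Ras(G12V), 45.9, 43 and 44.2 with mCherry, 79.8, 76.7 and 61.5 with etoposide and 57.4, 57.1 and 79.1 with DMSO, with overlapping groups. The labels do not say whether transcripts of the viral transgene count towards this row, so it does not check them.

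The oncogene effect and the etoposide effect differed for 339 of 12179 genes (2.78%) at an adjusted p under 0.05 in limma. Of these, 305 (2.5%) were higher in the contrast and 34 (0.279%) were lower, each by at least 1 log2 unit, and 192 by at least 2. The higher side held 32 genes of mitosis and 13 of the oligodendrocyte lineage. The lower side held 6 markers of fibroblasts, meninges and mural cells. The median difference over all genes tested was -0.07 log2 units, with a median standard error of 0.37. At an unadjusted p under 0.05, 2109 genes differed.

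Within the tables, limma called 1947 genes (16%) between H-Ras(G12V) and mCherry, 1137 up and 810 down. Between etoposide and DMSO it called 56 genes (0.46%), all 56 down. Without etoposide library 3, limma called 2173 genes up and 1636 down between etoposide and DMSO. The counts that follow are for all 12 libraries. The 305 higher genes were made up of 190 that passed as raised by the oncogene only, 14 that passed as lowered by etoposide only, 42 that passed in both models and 59 that passed in neither. Those 42 genes were the whole set called in opposite directions, each raised by H-Ras(G12V) and lowered in the libraries titled etoposide. No gene was called in the same direction in both models by limma, while 384 had an unadjusted p under 0.05 and the same sign in both. Of the 34 lower genes, 29 had passed as lowered by the oncogene only and 5 in neither model. These directions rest on the titles. With the groups of the treatment tag the etoposide effect changes sign, the 42 genes are called in the same direction and 0 in opposite directions, and 33 of the 339 genes are called. List medians of the contrast are then -0.90 for mitosis and 1.79 for p53 targets, and the largest is 2.31, for output genes of ERK signalling.

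**Figure D1:**
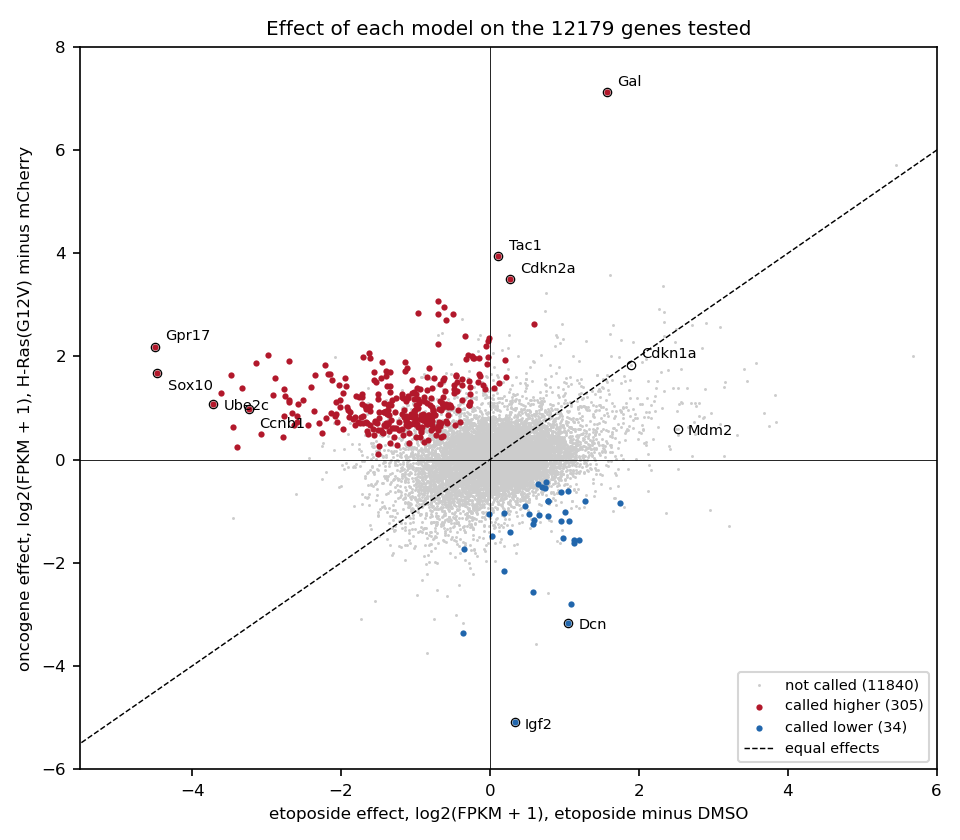
Etoposide effect (horizontal) against oncogene effect (vertical) of the 12179 genes tested, both as differences of mean log2(FPKM + 1), with the 305 genes called higher in red, the 34 called lower in blue and some named genes circled. Genes above the dashed line had an oncogene effect, with its sign, above their etoposide effect. Most red points lie at positive oncogene and negative etoposide effects, while Gal, Tac1 and Cdkn2a lie right of 0 on the etoposide axis.

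Etoposide library 3 decided how many genes were called. Without it 2587 genes passed, 1178 higher (9.67%) and 1409 lower (11.6%), and all 339 genes were among them. The genes called in opposite directions then numbered 207, of which 179 rose with H-Ras(G12V) and fell with etoposide, and 668 genes were called in the same direction in both models, 393 up and 275 down. Without mCherry library 3, 808 genes passed, 580 higher (4.76%) and 228 lower (1.87%). Leaving out one of the other 10 libraries gave 183 to 362 genes, and the low ends were 194 and 183 without mCherry library 1 or 2, 205, 206 and 225 without an H-Ras(G12V) library, and 216 without DMSO library 1. A core of 175 genes (1.44%) passed in each of the 12 fits that leave out a library. It held 174 higher genes and 1 lower gene, Igf2. The 34 lower genes became 3 to 8 without any H-Ras(G12V) library, mCherry library 1 or 2, or DMSO library 1 or 3, and 20 without etoposide library 2. The 42 genes called in opposite directions became 6 to 22 without any of the H-Ras(G12V) or DMSO libraries, mCherry library 1 or 2, or etoposide library 2.

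**Figure D2:**
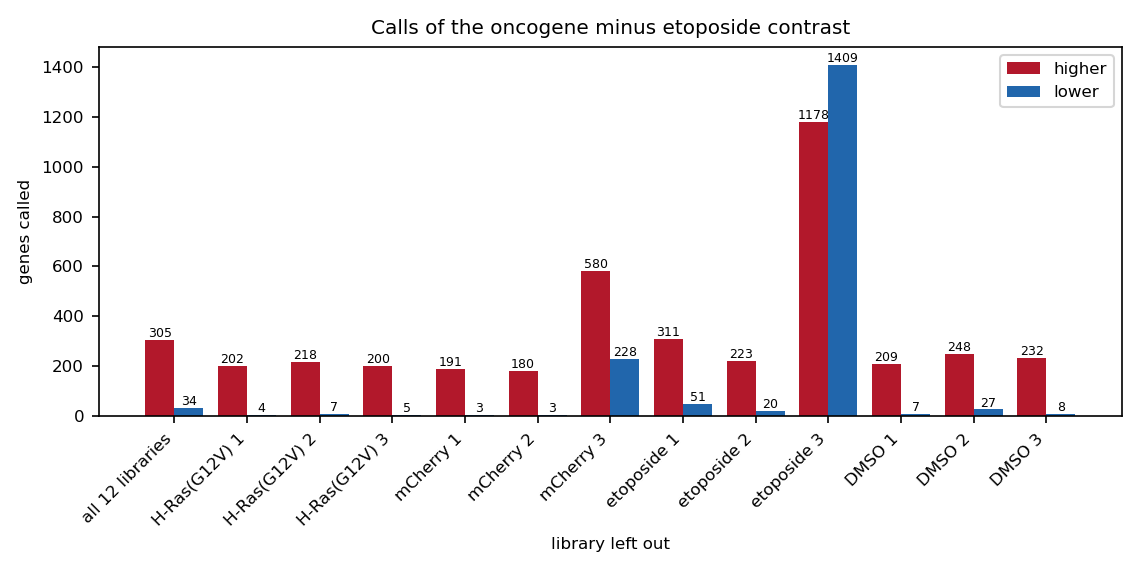
Number of genes called higher (red bars) and lower (blue bars) with all 12 libraries and with each library left out in turn. The lower calls run from 3 to 1409 and the higher calls from 180 to 1178, both highest without etoposide library 3.

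Most tested mitosis genes differed between the models. Of 40 tested members of the mitosis list, 32 were called higher and 0 lower in limma (34 and 0 at an unadjusted p under 0.05), against 2.5% of all genes, and the median difference was 2.41 log2 units. The median effect was 0.76 with H-Ras(G12V) and -1.65 with etoposide. Tested within each model, 23 members rose with the oncogene and 14 fell with etoposide, against 1137 and 56 of all 12179 genes. Relative to the control means, the list's median level was -1.51, -1.37 and -1.84 log2 units in etoposide libraries 1 to 3, so the third library was as low as the others here. It was 0.66, 0.55 and 1.06 in the H-Ras(G12V) libraries. Without etoposide library 3, 33 members (82.5%) were called higher, against 9.67% of all genes. Every fit that left out a library called between 24 and 33.

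In what follows, values are given for libraries 1, 2 and 3 in that order. Ccnb1, cyclin B1, which drives entry into mitosis with CDK1, read 42.2, 37.3 and 60.6 FPKM with H-Ras(G12V), 25.6, 22.5 and 20.1 with mCherry, 0.54, 0.39 and 0.33 with etoposide and 10.2, 16 and 11.6 with DMSO. The H-Ras(G12V) libraries lay above every mCherry library, and the etoposide libraries lay far below every DMSO library. The difference of effects was 4.22 ± 0.32 (SE) log2 units with an adjusted p of 4.0e-05 in limma. Ube2c, the ubiquitin-conjugating enzyme of the anaphase-promoting complex, read 68.2, 74.1 and 99.6 FPKM with H-Ras(G12V), 43.2, 35.7 and 32.6 with mCherry, 1.27, 0.69 and 0.97 with etoposide and 17.9, 30.5 and 27.8 with DMSO. Its difference was 4.80 ± 0.34 (SE), the largest of the list. Cdc20, the activator of that complex, read 29.2, 33.3 and 39 FPKM with H-Ras(G12V), 18.2, 14.9 and 13.6 with mCherry, 1.12, 1.75 and 0.56 with etoposide and 8.27, 14.1 and 12.9 with DMSO. No H-Ras(G12V) value overlapped mCherry and no etoposide value overlapped DMSO for either gene.

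Ccna2, cyclin A2, read 29.7, 24.7 and 41.1 FPKM with H-Ras(G12V), 20.9, 17.3 and 13 with mCherry, 0.45, 0.49 and 0.89 with etoposide and 9.43, 13.9 and 7.34 with DMSO, a difference of 3.63 ± 0.38 (SE). Top2a, topoisomerase II alpha, is the isoform of dividing cells and a protein target of etoposide. It read 47.1, 38.8 and 64.4 FPKM with H-Ras(G12V), 31.4, 28.4 and 21.9 with mCherry, 1.09, 0.98 and 1.04 with etoposide and 12.5, 22.3 and 4.91 with DMSO, a difference of 3.44 ± 0.55 (SE) with an adjusted p of 0.00401. DMSO library 3 was low for this gene but still above the etoposide libraries. At the other end, Bub3, a spindle checkpoint protein, had a difference of 0.53 (95% interval -0.06 to 1.12) and Pttg1, securin, 0.50 (-0.19 to 1.20), and neither was called. Chosen after its value was seen, Spc25, a kinetochore protein, was the 1 tested member with a negative difference, at -0.40.

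The sequence upstream of these genes is shown because they moved together. A pair of promoter elements is known from mitotic genes, the CCAAT box bound by NF-Y and the cell cycle genes homology region (CHR) bound by the DREAM and MuvB complexes. RefSeq promoter entries (GRCm38.p6) matched 25 of the 32 called members by symbol; Ccna2, Aurkb, Spc24, Foxm1, Kif20a, Tpx2 and Cdc25c had none. In the 200 bases before the first listed start, searched on both strands, TTTGAA or TTCGAA (CHR) was found in 9 of 25 genes (36%) and CCAAT in 18 (72%), with both in 8 (32%). The same search over the 27025 genes of the table found them in 13.65%, 30.02% and 4.17%, and over the 9782 tested genes with an entry in 8.26%, 33.0% and 3.05%. Among the 17 called replication genes with an entry the shares were 11.8%, 64.7% and 5.88%. A match describes letters in this window and says nothing about binding. The sequences below run 5′ to 3′ towards the start on the strand of the gene, with matches to either motif in capitals; they were chosen after their values were seen, as leading members with both motifs, and Ccnb1 as the leading member with CCAAT only.
Ube2c (chr2:164769729-164769928, plus strand): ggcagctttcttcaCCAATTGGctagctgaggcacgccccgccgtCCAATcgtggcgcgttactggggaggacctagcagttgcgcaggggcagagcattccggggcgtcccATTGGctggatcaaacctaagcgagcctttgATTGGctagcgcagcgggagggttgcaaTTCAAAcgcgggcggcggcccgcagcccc
Cdc20 (chr4:118437344-118437543, minus strand): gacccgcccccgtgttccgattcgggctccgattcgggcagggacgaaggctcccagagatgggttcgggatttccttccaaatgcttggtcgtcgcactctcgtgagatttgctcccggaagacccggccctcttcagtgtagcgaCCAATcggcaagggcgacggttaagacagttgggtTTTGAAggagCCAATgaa
Top2a (chr11:99024190-99024389, minus strand): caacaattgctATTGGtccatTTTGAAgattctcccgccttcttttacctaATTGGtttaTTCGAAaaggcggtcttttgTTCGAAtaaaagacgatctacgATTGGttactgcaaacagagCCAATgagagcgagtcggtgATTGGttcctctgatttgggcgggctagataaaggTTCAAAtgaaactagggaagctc
Cdk1 (chr10:69352913-69353112, minus strand): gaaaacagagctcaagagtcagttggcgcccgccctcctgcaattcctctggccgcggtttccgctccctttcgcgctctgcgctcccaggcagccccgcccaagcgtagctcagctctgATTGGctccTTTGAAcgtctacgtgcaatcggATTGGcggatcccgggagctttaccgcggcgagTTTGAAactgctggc
Ccnb1 (chr13:100786487-100786686, minus strand): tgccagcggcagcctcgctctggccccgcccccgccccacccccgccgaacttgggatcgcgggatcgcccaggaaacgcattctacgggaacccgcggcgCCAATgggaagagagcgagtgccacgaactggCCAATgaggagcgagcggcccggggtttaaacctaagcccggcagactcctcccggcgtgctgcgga

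DNA replication genes followed the same pattern at a smaller size. Of 46 tested members, 20 (43.5%) were called higher in limma, against 2.5% of all genes, and 0 lower (29 and 0 at an unadjusted p under 0.05). The median difference was 1.15 log2 units. The oncogene raised 26 members and etoposide lowered 6, against 1137 and 56 of all 12179 genes. Without etoposide library 3, 23 (50%) were called higher and 1 (2.17%) lower, against 9.67% and 11.6% of all genes. Mcm5, a subunit of the replicative helicase, read 18.4, 23.1 and 25.9 FPKM with H-Ras(G12V), 10.7, 8.82 and 8.83 with mCherry, 0.63, 0.51 and 1.35 with etoposide and 7.11, 9 and 12.2 with DMSO. Its difference was 3.67 ± 0.34 (SE), with no overlap of groups in either model. Mcm3, another helicase subunit, read 26.1, 27.9 and 34.9 FPKM with H-Ras(G12V), 16.4, 14.6 and 16.4 with mCherry, 2.56, 1.97 and 3.25 with etoposide and 11.6, 13.4 and 17.7 with DMSO, a difference of 2.93 ± 0.30 (SE). Uhrf1, which carries DNA methylation across replication, had a difference of 3.02 ± 0.33 (SE), and Tk1, thymidine kinase of S phase, of 2.96 ± 0.33 (SE).

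Not all replication genes took part. Rpa1, a single-strand DNA binding protein also used in repair, differed by 0.26 (95% interval -0.23 to 0.75) and Gins3, of the helicase complex, by 0.30 (-0.30 to 0.89). From the repair list, 3 of 33 members (9.09%) were called higher, against 2.5% of all genes, and 0 lower (9 and 0 at an unadjusted p under 0.05). Without etoposide library 3 the counts were 7 (21.2%) and 1 (3.03%), against 9.67% and 11.6% of all genes. Top2a and Timeless were among the 3. Timeless, a replication fork protein, read 6.07, 6.53 and 8.03 FPKM with H-Ras(G12V), 2.43, 2.38 and 2.76 with mCherry, 0.28, 0.41 and 0.51 with etoposide and 2.02, 2.6 and 2.83 with DMSO, a difference of 2.47 ± 0.26 (SE).

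Lmnb1 and Cdkn2a, a pair of genes used to recognise senescent cells, were both called higher. Loss of lamin B1, a protein of the nuclear lamina encoded by Lmnb1, is a widely used mark of senescence. Lmnb1 read 51.9, 54.7 and 63.1 FPKM with H-Ras(G12V), 38.2, 34.5 and 18.3 with mCherry, 10.7, 9.82 and 5.25 with etoposide and 20.1, 26.6 and 23.3 with DMSO, so every H-Ras(G12V) library lay above every mCherry library and every etoposide library below every DMSO library. The difference was 2.33 ± 0.42 (SE) with an adjusted p of 0.00861, and it passed in each fit that left out a library. Neither effect passed alone in limma, at adjusted p-values of 0.0559 and 0.163. Cdkn2a encodes the INK4 inhibitor p16 and the p53 activator ARF, which this gene-level value does not separate. It read 18.6, 33.4 and 47.6 FPKM with H-Ras(G12V), 0.95, 1.37 and 3.84 with mCherry, 5.48, 5.3 and 3.72 with etoposide and 3.28, 2.26 and 6.95 with DMSO. All 3 H-Ras(G12V) values lay above every mCherry value, and etoposide and DMSO overlapped. Its difference was 3.24 ± 0.59 (SE) with an adjusted p of 0.0105, also in each fit that left out a library.

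The other fixed senescence genes did not pass with all 12 libraries. Cdkn2b, the neighbouring INK4 gene for p15, read 22.3, 29.4 and 29.2 FPKM with H-Ras(G12V), 2.37, 3.42 and 5.37 with mCherry, 19.6, 15.3 and 5.71 with etoposide and 2.74, 3.45 and 3.35 with DMSO. It lay above every control library in both models, and the difference of 0.95 had a 95% interval of -0.17 to 2.07. Cdkn1a, the p53-induced inhibitor p21, read 134, 172 and 202 FPKM with H-Ras(G12V), 38.2, 34 and 74 with mCherry, 461, 295 and 126 with etoposide and 56.2, 61.5 and 93.6 with DMSO. Its effects were 1.84 and 1.89 log2 units, and the difference of -0.05 had a 95% interval of -1.36 to 1.25, too wide to call the effects alike. Ccnd1, cyclin D1, a growth target of ERK signalling, read 245, 282 and 423 FPKM with H-Ras(G12V), 33, 29.3 and 171 with mCherry, 50.1, 27.2 and 57.2 with etoposide and 60.7, 59.7 and 83.8 with DMSO. The difference of 3.10 ± 0.76 (SE) missed the threshold at an adjusted p of 0.0515 and was 3.91 (adjusted p = 0.00038) without mCherry library 3, which was the highest mCherry library for this gene. Glb1, lysosomal beta-galactosidase, differed by 0.34 (-0.33 to 1.01). Of the 26 tested genes of this list 2 (7.69%) were called higher, against 2.5% of all genes, and 0 lower (9 and 1 at an unadjusted p under 0.05). Their median was 0.70. Without etoposide library 3 the counts were 8 (30.8%) and 3 (11.5%), against 9.67% and 11.6% of all genes, so the lower share was near that of all genes. The median then fell to 0.43, and without mCherry library 3 it was also 0.43.

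Oligodendrocyte lineage genes had the largest median difference of the 38 lists with groups taken from the titles. With those of the treatment tag their median was -0.32, with 0 higher and 1 lower. Of 16 tested markers 13 (81.2%) were called higher in limma, against 2.5% of all genes, and 0 lower (16 and 0 at an unadjusted p under 0.05). The median difference was 3.75 log2 units. Median effects were 1.65 with the oncogene, where 11 members rose, and -1.89 with etoposide, where 7 fell. Of all 12179 genes, 1137 rose with the oncogene and 56 fell with etoposide. The summed level of the 16 genes was 1112 to 1391 FPKM with H-Ras(G12V), 268 to 909 with mCherry, 86.3 to 231 with etoposide and 649.5 to 958 with DMSO. The control libraries of the mCherry group spread widely, and the count of called members depended on them. It was 8 without mCherry library 1 or 2, and 9 without H-Ras(G12V) library 1 or 2 or etoposide library 2. It was 16 without mCherry library 3 and 15 without etoposide library 3, where 4.76% and 9.67% of all genes were higher.

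Transcription factors come first in the lineage. Sox10, a transcription factor of the oligodendrocyte lineage, read 47.8, 38.8 and 34.4 FPKM with H-Ras(G12V) and 9.21, 7.64 and 23.2 with mCherry. It read 0.09, 0.14 and 0.01 with etoposide and 25.1, 18.8 and 25.4 with DMSO. It was near 0 in all 3 etoposide libraries, far below every DMSO library, and every H-Ras(G12V) library lay above every mCherry library. The difference was 6.14 ± 0.46 (SE) with an adjusted p of 4.0e-05. Sox8, its close relative, read 49.8, 44.2 and 52.8 FPKM with H-Ras(G12V), 16.8, 11.3 and 20.3 with mCherry, 2.44, 1.58 and 2.99 with etoposide and 23.5, 20 and 26.9 with DMSO, a difference of 4.46 ± 0.34 (SE). Chosen after its value was seen, Olig2, a basic helix-loop-helix factor of precursors and some neural progenitors, read 185, 190.1 and 242 FPKM with H-Ras(G12V), 47.7, 37.6 and 101 with mCherry, 22.8, 16.9 and 31.4 with etoposide and 112, 91.5 and 133 with DMSO. Its difference was 4.05 ± 0.47 (SE), with no overlap in either model and a measurable level left with etoposide.

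Receptors of precursor cells came next. Gpr17, a receptor of cells committing to differentiation, read 45.8, 25 and 39.5 FPKM with H-Ras(G12V), 4.24, 3.57 and 20.8 with mCherry, 0.11, 0.05 and 0 with etoposide and 27.8, 25.6 and 16.6 with DMSO. Its difference of 6.69 ± 0.68 (SE) was the largest of all genes named under the rule for the most different genes. Pdgfra, the receptor for PDGF-A that drives precursor division, read 41.6, 32.7 and 55.6 FPKM with H-Ras(G12V), 12.4, 11.9 and 30.8 with mCherry, 4.68, 1.64 and 3.59 with etoposide and 66.7, 51.1 and 35 with DMSO. The H-Ras(G12V) libraries lay above the mCherry libraries by a small margin over library 3, and the oncogene effect alone did not pass (adjusted p = 0.0578). Etoposide lowered Pdgfra (adjusted p = 0.00377), and the difference was 4.91 ± 0.55 (SE).

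Among differentiation and myelin genes, Bcas1, a mark of early myelinating cells, read 103, 49.9 and 63.5 FPKM with H-Ras(G12V), 16.7, 11.8 and 48 with mCherry, 0.07, 0.01 and 0.08 with etoposide and 11.9, 15.9 and 6.34 with DMSO. The difference was 5.12 ± 0.64 (SE). Myrf, the factor that switches on myelin genes, differed by 2.0 ± 0.52 (SE) and was not called (adjusted p = 0.0685). C1ql1, Lhfpl3, Tmem100 and Tmem255b, named for the size of their difference, had differences of 5.01, 5.02, 4.61 and 4.71. Lhfpl3 is a precursor marker. The etoposide libraries stood at or under 2.39 FPKM for each of the 4 genes, below every DMSO library.

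**Figure D3:**
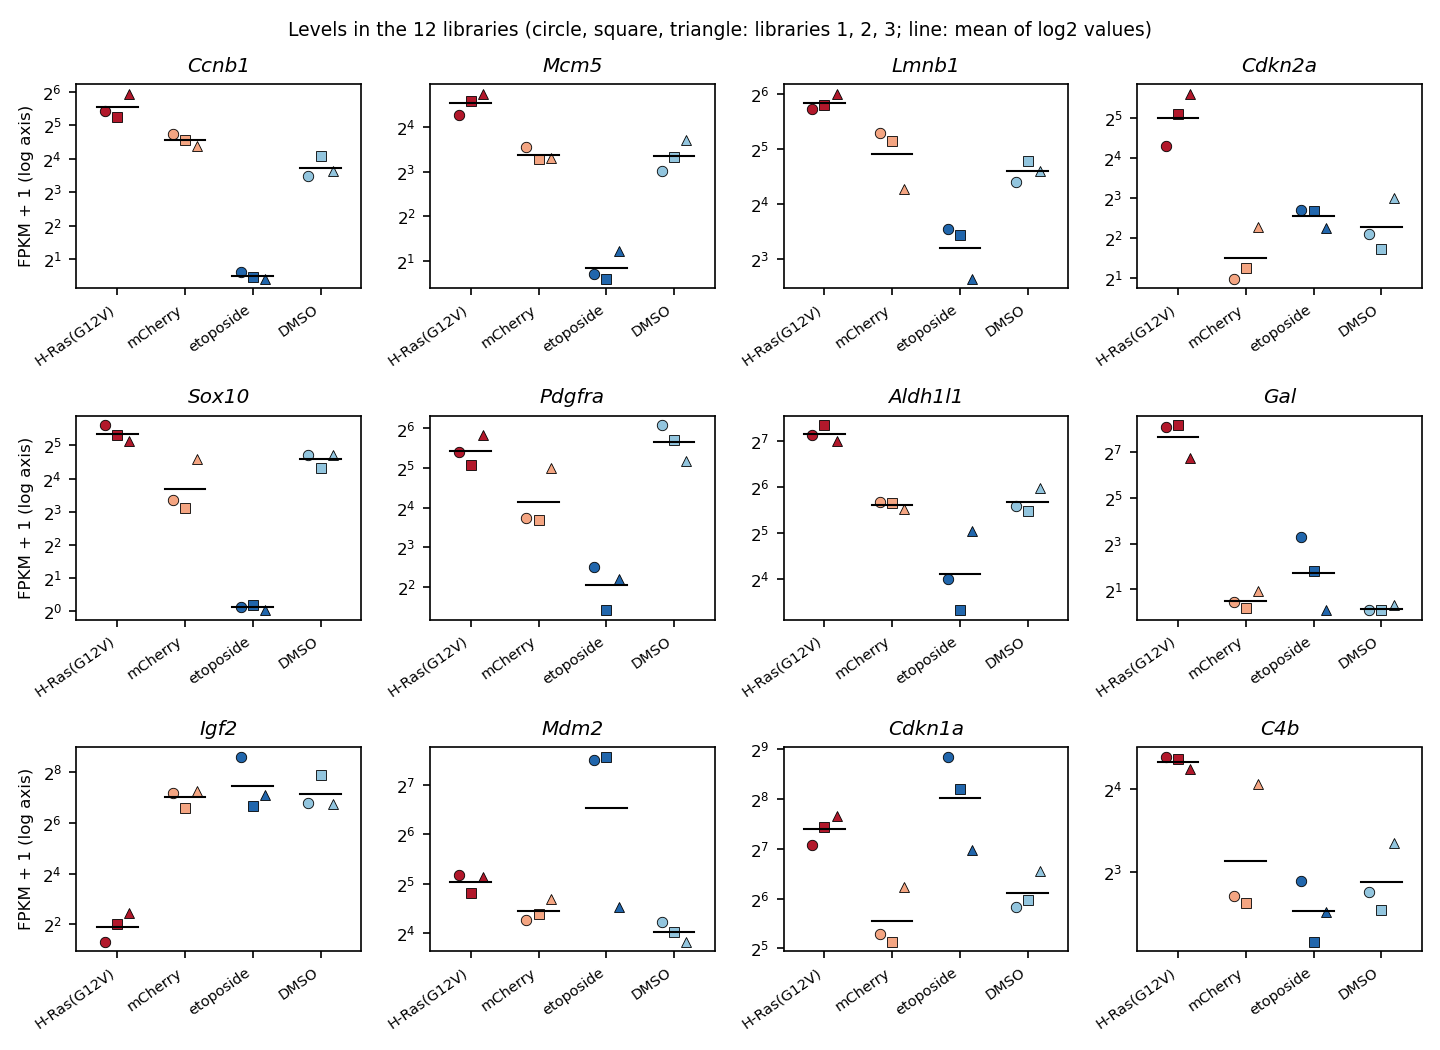
FPKM + 1 on a log axis (base 2) for 12 genes in the 4 groups; each symbol is a library (circle 1, square 2, triangle 3) and each line the mean of log2 values. Ccnb1, Mcm5, Sox10 and Pdgfra are low in all 3 etoposide libraries; for Mdm2 and Cdkn1a etoposide library 3 lies well below libraries 1 and 2.

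Neural progenitor genes had a median difference of 0.85. In limma 5 of 23 members (21.7%) were called higher, against 2.5% of all genes, and 0 lower (11 and 0 at an unadjusted p under 0.05). Among the 5 called were Fabp7, Dll3, Sox3 and Hes5. Sox3, a factor that keeps progenitors undifferentiated, read 15.5, 17.4 and 17.8 FPKM with H-Ras(G12V), 6.73, 5.75 and 4.96 with mCherry, 1.03, 0.56 and 2.5 with etoposide and 10.1, 8.96 and 13.8 with DMSO, a difference of 3.8 ± 0.39 (SE). Dll3, a Notch ligand family member, read 15.3, 14 and 16.2 FPKM with H-Ras(G12V), 3.04, 2.5 and 8.32 with mCherry, 1.68, 2.2 and 0.63 with etoposide and 11, 7.52 and 11.7 with DMSO. Hes5, a Notch target, read 17, 13.6 and 15.1 FPKM with H-Ras(G12V), 15, 13.2 and 6.55 with mCherry, 1.43, 0.69 and 1.89 with etoposide and 16.4, 8.97 and 21.5 with DMSO. The H-Ras(G12V) and mCherry groups overlapped for Hes5, and its difference of 3.22 ± 0.49 (SE) came with etoposide values all below DMSO. Chosen after its value was seen, Fabp7, a fatty acid binding protein of radial glia, differed by 4.09 ± 0.85 (SE) and passed in 6 of the 12 fits that leave out a library. Neurog2, the factor of excitatory neuron progenitors, differed by -0.22 (-0.79 to 0.35) and was not called. Leaving out etoposide library 3 gave 8 members (34.8%) higher and 1 (4.35%) lower, against 9.67% and 11.6% of all genes.

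Astrocyte markers had a median difference of 1.84 over 25 tested genes, and 22 had a positive sign. With all libraries 4 (16%) were called higher, against 2.5% of all genes, and 0 lower (16 and 0 at an unadjusted p under 0.05). Leaving out etoposide library 3 made this 16 (64%) and 1 (4%), against 9.67% and 11.6% of all genes. Without mCherry library 3, where 4.76% of all genes were higher, it was 14 and 0. Summed levels were 6858 to 8222 FPKM with H-Ras(G12V), 3207 to 7957 with mCherry, 3975 to 7398 with etoposide and 4564 to 8915 with DMSO, so mCherry library 3 reached into the range of the oncogene libraries. Aldh1l1, a folate enzyme used as a general astrocyte marker, read 139, 160.4 and 127 FPKM with H-Ras(G12V), 50, 49.2 and 44.9 with mCherry, 15.1, 9.04 and 32.1 with etoposide and 47, 44 and 62 with DMSO. Neither model's groups overlapped, and the difference was 3.10 ± 0.47 (SE). Fgfr3, a growth factor receptor of astrocytes and progenitors, differed by 1.96 ± 0.32 (SE), Slc7a10, an amino acid transporter, by 2.52 ± 0.47 (SE), and Ntsr2, a neurotensin receptor, by 2.32 ± 0.47 (SE). Clu, clusterin, and Slc1a3, a glutamate transporter, differed by 0.86 (-0.01 to 1.72) and 1.13 (0.27 to 1.99), and neither was called. Chosen after its value was seen, Gja1, the gap junction protein connexin 43, had the most negative of the 3 negative differences, at -1.23.

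Fibroblast, meningeal and mural cell markers went the other way. Of 24 tested genes 6 (25%) were called lower in limma, against 0.279% of all genes, and 0 higher (16 and 0 at an unadjusted p under 0.05). The median difference was -2.11. The median effect was -1.58 with the oncogene, where 16 fell, and 0.22 with etoposide, where none passed. Of all 12179 genes, 810 fell with the oncogene and 56 with etoposide. Summed levels were 249 to 375 FPKM with H-Ras(G12V), 584 to 739 with mCherry, 662 to 1653 with etoposide and 611 to 1173 with DMSO. The count was 9 (37.5%) without etoposide library 3, where 11.6% of all genes were lower. It was 2 without DMSO library 1 or without H-Ras(G12V) library 1 or 3. It was 3 without mCherry library 1 or 2, DMSO library 3 or H-Ras(G12V) library 2.

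Igf2, an insulin-like growth factor made by meningeal and mural cells in the brain, read 1.48, 3.03 and 4.4 FPKM with H-Ras(G12V), 144, 95.1 and 153 with mCherry, 385, 101 and 137 with etoposide and 109, 234 and 105 with DMSO. Every H-Ras(G12V) library lay far below every mCherry library. The difference was -5.42 ± 0.67 (SE) with an adjusted p of 0.00074, the largest fall relative to etoposide among the 34 lower genes. Dcn, the matrix proteoglycan decorin, read 0.94, 1.63 and 1.24 FPKM with H-Ras(G12V), 17.2, 13.6 and 29.5 with mCherry, 132, 36.1 and 32.4 with etoposide and 24.5, 61.7 and 10.7 with DMSO, a difference of -4.20 ± 0.84 (SE) that passed in 11 of 12 fits leaving out a library. Etoposide and DMSO overlapped for both genes. Lum and Bgn, lumican and biglycan, differed by -3.88 ± 0.83 (SE) and -3.16 ± 0.69 (SE), and Pdgfrb, the receptor of pericytes, by -2.70 ± 0.59 (SE); they passed in 5, 6 and 5 of those fits. Vtn, vitronectin, which also inhibits the terminal complement complex, read 0.73, 0.33 and 0.48 FPKM with H-Ras(G12V), 11.9, 10.5 and 24.4 with mCherry, 59.8, 13.9 and 33.7 with etoposide and 36.9, 34.5 and 48.8 with DMSO. Its difference was -3.01 ± 0.61 (SE), it passed in 8 of the 12 fits that leave out a library, and it was the single complement-list member that passed. Foxc1 and Anpep differed by -0.89 and -1.70 and were not called.

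Other lower genes were chosen for mention after their values were seen. Col4a1 and Col4a2, the paired collagens of basement membrane, differed by -2.77 and -2.50. Kif5a and Kif5c, kinesin motors of axonal transport, differed by -2.25 and -1.73, and each passed in 6 or fewer of the 12 fits that leave out a library. Inhibitory neuron markers gave 2 lower (8.7%) and 0 higher of 23, against 0.279% and 2.5% of all genes. At an unadjusted p under 0.05 they gave 10 lower and 1 higher, and 16 differences were negative and 7 positive. Without etoposide library 3, 5 (21.7%) were lower and 0 higher, against 11.6% and 9.67% of all genes. Calb2, the calcium buffer calretinin, read 17.1, 17.9 and 17.6 FPKM with H-Ras(G12V), 100.05, 96 and 57 with mCherry, 67.8, 148 and 174 with etoposide and 100.5, 91.3 and 129 with DMSO, a difference of -2.34 ± 0.46 (SE) with the oncogene libraries below every mCherry library. Nr2f2, a transcription factor of interneurons, differed by -1.37 ± 0.31 (SE). Scn3b, a sodium channel subunit, was the single channel gene of 46 that passed, at -1.51 ± 0.35 (SE). The called share of the channel list, 2.17%, was near the 2.78% of all genes. Of the 12 fits that leave out a library, Calb2 passed in 9 and Nr2f2 and Scn3b in 3 each; scaling to equal FPKM sums also ended the call of Nr2f2, and both scalings that of Scn3b. Fam177a and Fam177a2, both called lower, have identical values in the tables and count as 1 measurement.

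Several neuropeptide genes rose with the oncogene. Of 25 tested, 5 (20%) were called higher, against 2.5% of all genes, and 0 lower (10 and 2 at an unadjusted p under 0.05). The median difference was 0.65. Without mCherry library 3, where 4.76% of all genes were higher, the count was 11. Gal, the precursor of galanin, a peptide induced by nerve injury, read 270.5, 283 and 104 FPKM with H-Ras(G12V), 0.37, 0.13 and 0.9 with mCherry, 8.87, 2.51 and 0.07 with etoposide and 0.06, 0.07 and 0.25 with DMSO. It was near 0 in every mCherry library and high in every H-Ras(G12V) library. Etoposide libraries 1 and 2 were above the DMSO libraries and library 3 was not. The difference was 5.56 ± 0.88 (SE), and without etoposide library 3 it was 4.74. Tac1, the precursor of substance P, read 190.5, 168 and 234 FPKM with H-Ras(G12V), 6.8, 7.27 and 31.7 with mCherry, 7.51, 15.9 and 11.4 with etoposide and 9.19, 13.1 and 8.86 with DMSO, a difference of 3.83 ± 0.65 (SE). Nmb, neuromedin B, differed by 2.37 ± 0.42 (SE). Grp, gastrin-releasing peptide, the fifth, differed by 3.81 ± 0.81 (SE) and passed in 5 of the 12 fits that leave out a library.

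Adcyap1, the precursor of PACAP, another peptide of injured neurons, had a second form. It read 32.1, 33.6 and 31.4 FPKM with H-Ras(G12V), 10.4, 8.69 and 5.42 with mCherry, 0.42, 0.59 and 4.23 with etoposide and 4.27, 7.96 and 4.14 with DMSO. Etoposide libraries 1 and 2 were low and library 3 lay within the DMSO range, and the difference was 3.35 ± 0.61 (SE). Chgb and Pam, of the general machinery of peptide secretion, differed by 0.33 (-0.41 to 1.07) and -0.12 (-0.81 to 0.57) and were not called. The axon injury list had a median of -0.01. In it 3 of 40 genes (7.5%) were called higher, against 2.5% of all genes, and 0 lower (8 and 7 at an unadjusted p under 0.05). These were Gal, Adcyap1 and Itga7, a laminin receptor, which differed by 2.04 ± 0.46 (SE). Itga7 passed in 3 of the 12 fits that leave out a library, and Gal in all 12 but not at a pseudocount of 0.1 (adjusted p = 0.079). The axon list gave 5 higher (12.5%) and 8 lower (20%) without etoposide library 3, against 9.67% and 11.6% of all genes. Nptx2, neuronal pentraxin 2, a secreted synaptic protein, was the 1 activity gene of 35 that passed, at 3.30 ± 0.66 (SE). That share, 2.86%, was near the 2.78% of all genes. The Nptx2 values were 46.9, 74.1 and 46.5 FPKM with H-Ras(G12V) and 4.98, 3.73 and 20.4 with mCherry. They were 4.52, 8.78 and 6.32 with etoposide and 7.36, 12.8 and 10.8 with DMSO. Its call held in 9 of the 12 fits that leave out a library. Leaving out mCherry library 1, DMSO library 3 or the second H-Ras(G12V) library ended it, as did averaging mCherry libraries 1 and 2.

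Targets of p53 had positive median effects in both models, and whether the models differed depended on etoposide library 3. With all libraries 0 of 43 tested targets were called in either direction by limma (0 higher and 8 lower at an unadjusted p under 0.05). The median difference was -0.57 log2 units, with 35 negative signs. Median effects were 0.69 with the oncogene, where 19 rose, and 0.99 with etoposide, where none passed. Of all 12179 genes, 1137 passed as raised by the oncogene and 0 by etoposide, the latter 2173 without etoposide library 3. The list's median level above control was 1.41, 1.32 and 0.41 in etoposide libraries 1 to 3 and 0.71, 0.63 and 0.77 with H-Ras(G12V). Without etoposide library 3, 18 of 43 were called lower and 0 higher, against 11.6% of all genes lower. Mdm2, the p53 target that degrades p53, read 35.1, 27.1 and 34.4 FPKM with H-Ras(G12V), 18.2, 20.1 and 25 with mCherry, 182, 189 and 22.2 with etoposide and 17.7, 15.2 and 13.1 with DMSO. Library 3 of etoposide stood near the controls. The difference was -1.93 ± 0.85 (SE) (adjusted p = 0.27), and -2.93 (adjusted p = 7.9e-05) without that library.

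Gdf15, a stress-induced secreted factor and p53 target, read 4.07, 4.38 and 9.98 FPKM with H-Ras(G12V), 0.94, 1.37 and 5.54 with mCherry, 174, 109 and 8.49 with etoposide and 7.34, 4.53 and 10.3 with DMSO. Its difference was -1.71 ± 1.22 (SE) (adjusted p = 0.477) and -3.0 (adjusted p = 0.0117) without etoposide library 3. Trp53, which encodes p53, read 37.4, 41.8 and 39.2 FPKM with H-Ras(G12V), 27.3, 25.3 and 23 with mCherry, 59.8, 59.2 and 15.4 with etoposide and 18.1, 18.6 and 26.9 with DMSO, with etoposide and DMSO overlapping. Its difference was -0.21 (adjusted p = 0.875) and -0.84 (adjusted p = 0.0355) without that library. Chosen after their values were seen, Bbc3, the cell death gene PUMA, and Gadd45a, a growth arrest gene, differed by -2.22 and -1.73, with adjusted p-values of 0.186 and 0.45. These were 0.00144 and 0.00045 without etoposide library 3. Klhl26 and Sesn1, targets with narrow intervals, differed by -0.25 (-0.83 to 0.34) and -0.26 (-0.84 to 0.31).

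Stress response lists showed the same dependence on etoposide library 3. The integrated stress and unfolded protein response, by which cells limit protein synthesis and raise chaperones, had 0 of 49 members called by limma (5 higher and 3 lower at an unadjusted p under 0.05). Its median difference was -0.39. Median levels above control were 1.01, 1.08 and -0.20 in etoposide libraries 1 to 3 and 0.44, 0.39 and 0.41 with H-Ras(G12V). Without etoposide library 3, 20 (40.8%) were called lower and 1 (2.04%) higher, against 11.6% and 9.67% of all genes. Chosen after their values were seen, Atf3, a stress transcription factor, and Hspa5, the chaperone BiP, differed by -2.59 and -1.47, and by -4.26 and -2.24 without that library (adjusted p = 0.00201 and 0.00107). Sel1l and Wars, named for narrow intervals, differed by -0.33 (-0.87 to 0.20) and 0.03 (-0.54 to 0.60).

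NRF2 targets, the oxidant defence genes, had 0 of 29 called (2 higher and 2 lower at an unadjusted p under 0.05). Without etoposide library 3, 9 (31.0%) were lower, against 11.6% of all genes. Heat shock proteins had 0 of 24 called (1 and 2) and then 5 lower (20.8%) and 1 higher (4.17%), against 11.6% and 9.67%. Secreted factors of senescence had 0 of 41 called (1 and 5) and then 12 lower (29.3%). Their median difference was -0.57 over all libraries and -1.09 without etoposide library 3. Chosen after its value was seen, Mmp3, a matrix protease, had the most negative difference of that list, at -3.68. Tgfb2 and Vegfc differed by -0.31 (-0.97 to 0.34) and -0.57 (-1.27 to 0.14). Il6 and C3, fixed for mention, did not reach the level needed in each table.

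Output genes of ERK signalling had positive median effects in both models. Over 37 tested genes the median effect was 1.11 with H-Ras(G12V), where 19 rose, and 0.96 with etoposide, where none passed. Among all 12179 genes, 1137 passed as raised by H-Ras(G12V) and 0 by etoposide, the latter 2173 without etoposide library 3. With limma 0 were called in the contrast (5 higher and 0 lower at an unadjusted p under 0.05), and 3 higher (8.11%) and 8 lower (21.6%) without etoposide library 3, against 9.67% and 11.6% of all genes. The median difference of 0.06 changed sign without that library, to -0.24. Levels above control were 1.54, 1.28 and 0.06 in etoposide libraries 1 to 3. Spred2 and Dusp7, inhibitors of the pathway, differed by 0.03 (-0.58 to 0.64) and 0.51 (-0.12 to 1.14). Of the 35 core pathway genes, Gab1, a docking protein of receptor tyrosine kinases, was the 1 called, at 1.34 ± 0.27 (SE). That share, 2.86%, was near the 2.78% of all genes. Gab1 read 23.1, 20.4 and 22.8 FPKM with H-Ras(G12V) and 8.79, 9.25 and 12.4 with mCherry. It read 10, 8.24 and 7.27 with etoposide and 10.9, 9.68 and 10.7 with DMSO. It passed in 7 of the 12 fits that leave out a library, and without H-Ras(G12V) library 1 or 3, mCherry library 1 or 2, or DMSO library 1, 0 of 35 were called. Araf and Ptpn11, a kinase and a phosphatase of the pathway, differed by -0.33 (-0.86 to 0.20) and 0.11 (-0.41 to 0.62).

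**Figure D4:**
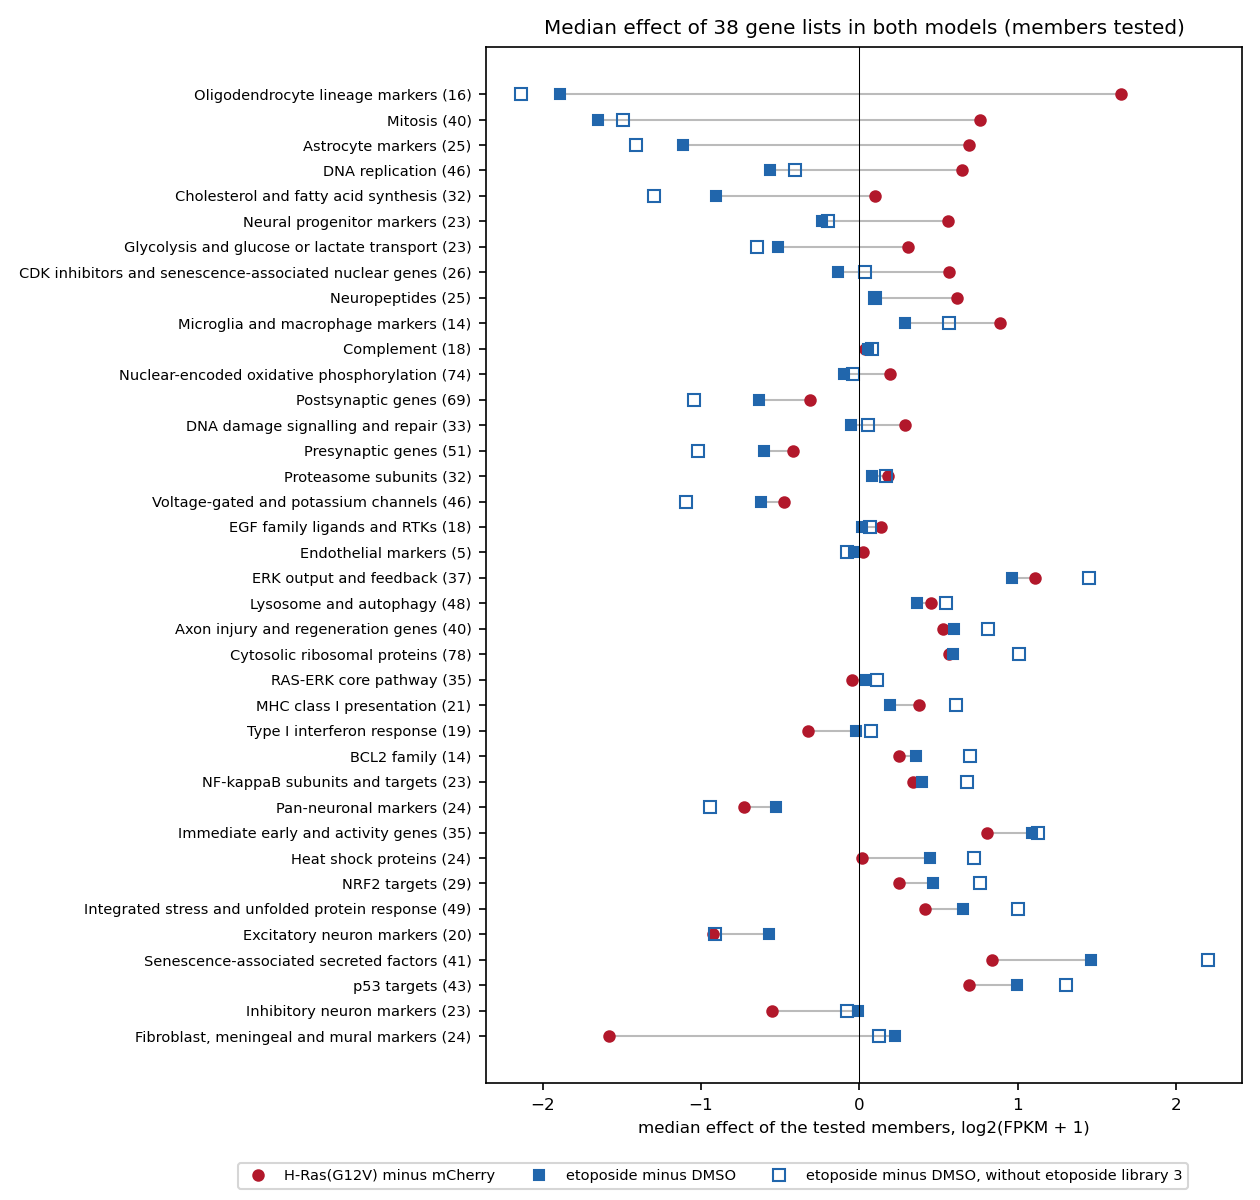
Median effect of the tested members of 38 gene lists in log2(FPKM + 1), with the number tested in brackets: red circles for H-Ras(G12V) minus mCherry, filled blue squares for etoposide minus DMSO, open squares for etoposide without library 3. Oligodendrocyte lineage and mitosis lists have medians of opposite sign in the models, and synaptic, ribosomal, p53 and secreted factor medians move away from 0 for etoposide when library 3 is left out.

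Cholesterol and fatty acid synthesis had a positive difference in 31 of 32 genes, with a median of 1.03. With all libraries 2 (6.25%) were called higher, against 2.5% of all genes, and 0 lower (14 and 0 at an unadjusted p under 0.05). Without etoposide library 3 the counts were 23 (71.9%) and 0, against 9.67% and 11.6% of all genes. The list's level relative to control was -1.23, -1.38 and -0.05 in etoposide libraries 1 to 3 and 0.20, 0.04 and -0.01 with H-Ras(G12V), so it was low in etoposide libraries 1 and 2 only. Srebf1, the transcription factor of lipid synthesis, read 41.9, 54.2 and 38.6 FPKM with H-Ras(G12V), 19.2, 20 and 28.7 with mCherry, 8.45, 5.95 and 18.5 with etoposide and 22.7, 23.4 and 37 with DMSO, a difference of 2.33 ± 0.48 (SE). Lss, lanosterol synthase, differed by 1.22 ± 0.30 (SE) and passed narrowly (adjusted p = 0.0495). Srebf1 passed in 6 and Lss in 2 of the 12 fits that leave out a library. Insig1 and Cyp51 differed by 0.66 (0.10 to 1.21) and 0.36 (-0.24 to 0.96).

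Glycolysis genes had 0 of 23 called (10 higher and 0 lower at an unadjusted p under 0.05), with a median of 0.71. Without etoposide library 3, 8 (34.8%) were higher and 1 (4.35%) lower, against 9.67% and 11.6% of all genes. Pgk1, phosphoglycerate kinase, read 376, 385 and 539 FPKM with H-Ras(G12V), 244, 232 and 349 with mCherry, 237, 249 and 265 with etoposide and 325, 439 and 388 with DMSO, and its difference of 1.27 ± 0.31 (SE) missed the threshold (adjusted p = 0.053). Subunits of oxidative phosphorylation had 0 of 74 called (8 and 0) and a median of 0.37. Cytosolic ribosomal proteins had 0 of 78 called (0 and 0), and median effects of 0.57 with H-Ras(G12V) and 0.59 with etoposide, the latter 1.01 without etoposide library 3. Their levels in etoposide libraries 1 to 3 were 1.27, 0.75 and -0.29. The proteasome list had 0 of 32 called (0 and 0) with a median of 0.14, and lysosome and autophagy genes 0 of 48 (1 and 1) with a median of 0.00. Becn1, beclin 1, an autophagy protein, had one of the narrowest intervals of any named gene, at -0.08 (-0.55 to 0.39), and read 62.8, 58 and 61.5 FPKM with H-Ras(G12V), 58, 59.3 and 62.4 with mCherry, 64.7, 67.9 and 60.7 with etoposide and 54.5, 58.9 and 66.7 with DMSO.

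Neuronal lists had negative median effects in both models. Few of their genes were called in the contrast, but only 2.78% of all genes were called. Pan-neuronal markers had 0 of 24 called (3 higher and 0 lower at an unadjusted p under 0.05), with median effects of -0.73 and -0.53. Presynaptic genes had 0 of 51 called (0 and 0), and postsynaptic genes 1 higher and 0 lower of 69, with medians of 0.17 and 0.22. The postsynaptic gene was Gabrg1, a GABA-A receptor subunit, at 1.84 ± 0.42 (SE). It passed in 4 of the 12 fits that leave out a library. The called share of the postsynaptic list was 1.45%, against 2.78% of all genes. Without etoposide library 3, 4 presynaptic genes (7.84%) and 15 postsynaptic genes (21.7%) were called higher, against 9.67% of all genes. In that fit 0 presynaptic and 2 postsynaptic genes (2.90%) were lower, against 11.6% of all genes. The medians were then 0.67 and 0.63, and without etoposide library 1 they were negative, at -0.35 and -0.24. The level of the postsynaptic list was -1.55, -0.67 and 0.11 in etoposide libraries 1 to 3, and library 3 was the one at control level. Stmn3 and Uchl1, abundant neuronal proteins, differed by 0.12 (-0.69 to 0.93) and -0.27 (-1.17 to 0.64). Excitatory neuron markers had 0 of 20 called (0 and 5), with a median difference of -0.45. That median was 0.01 without etoposide library 3 and -0.91 without mCherry library 3. The median difference of pan-neuronal markers was -0.17, and 0.30 without etoposide library 3.

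**Figure D5:**
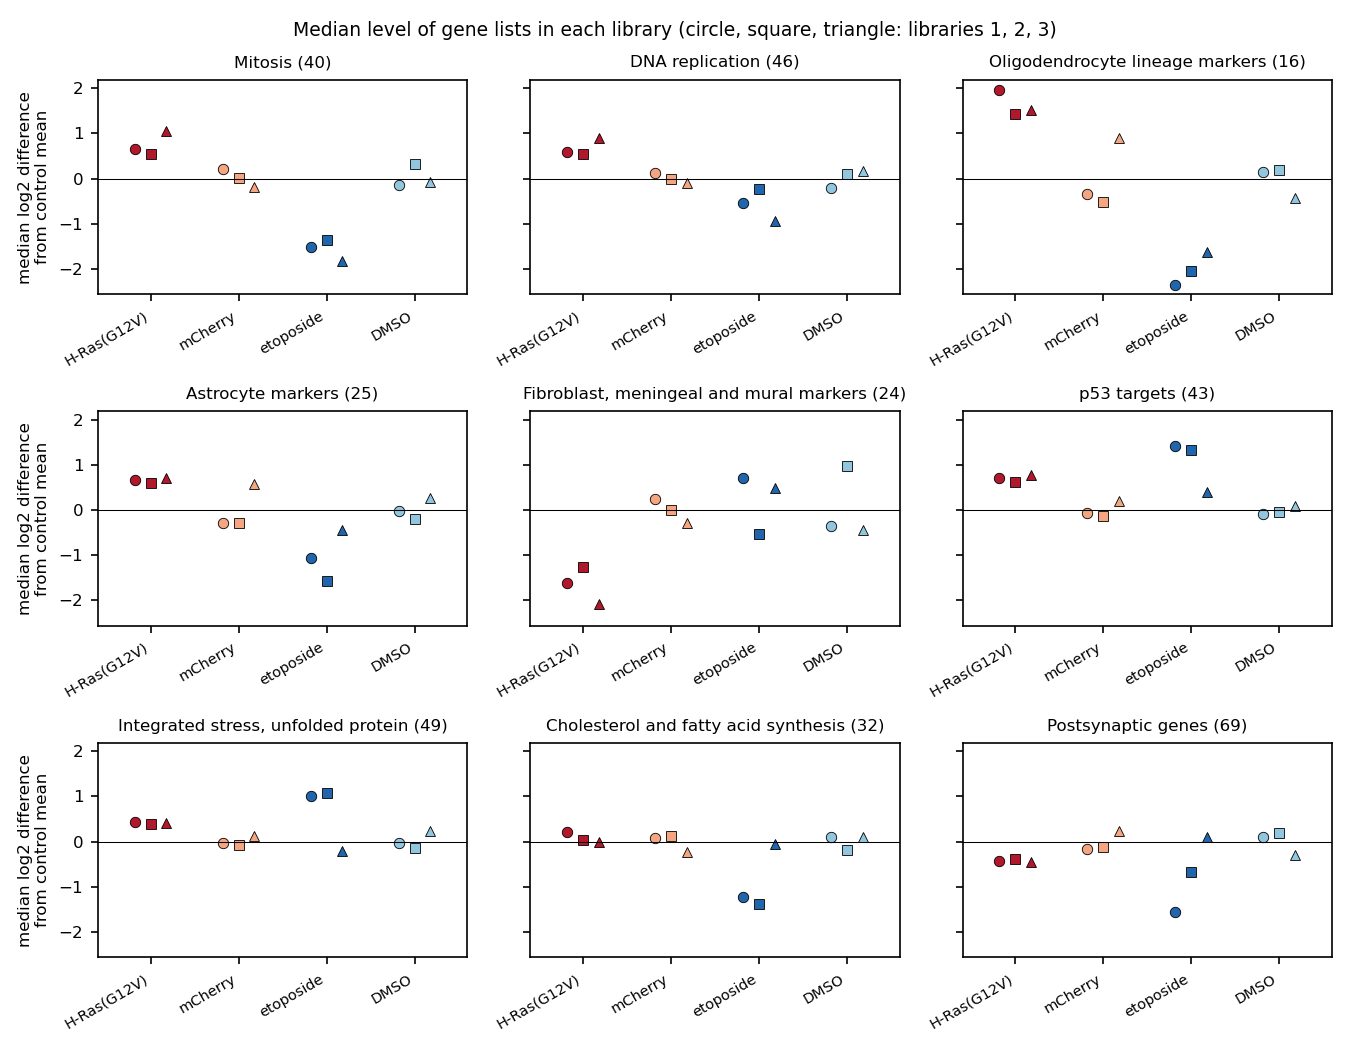
Median log2 difference of the tested members of 9 lists from the mean of the control libraries of the same table, for each of the 12 libraries (circle 1, square 2, triangle 3). Etoposide library 3 lies with libraries 1 and 2 for mitosis and oligodendrocyte lineage genes and near the DMSO libraries for stress response, cholesterol and postsynaptic genes.

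Complement, the subject of the series title, had 1 of 18 tested genes called (5.56%, against 2.78% of all genes), Vtn, and a median difference of 0.39. That median was -0.09 without mCherry library 3 and -0.19 without DMSO library 2. Vtn was lost at a pseudocount of 5 and without H-Ras(G12V) library 2 or 3 or DMSO library 1 or 2. C4b, complement component 4B, read 19.9, 19.5 and 17.9 FPKM with H-Ras(G12V), 5.55, 5.16 and 15.7 with mCherry, 6.42, 3.44 and 4.73 with etoposide and 5.72, 4.8 and 9.14 with DMSO. The H-Ras(G12V) libraries lay above every mCherry library, mCherry library 3 came close to them, and etoposide overlapped DMSO. The difference was 1.55 ± 0.51 (SE) with a 95% interval of 0.45 to 2.65 and an adjusted p of 0.147. Without mCherry library 3 it was 2.02 and passed (adjusted p = 0.00799). C4b has a near-identical copy, C4a, and reads of the copies may have been split by the counting. Cr1l and Csmd2, regulators of complement, differed by -0.40 (-1.14 to 0.34) and 0.90 (0.18 to 1.62).

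The remaining lists held few or no calls with all libraries. Growth factor receptors and ligands gave 2 higher and 1 lower of 18 (16.7% called, against 2.78% of all genes), namely Pdgfra, Fgfr3 and Pdgfrb. Fgfr1 and Nrg2 differed by 0.06 (-0.52 to 0.64) and -0.07 (-0.60 to 0.45). The BCL2 family had 0 of 14 called (0 higher and 1 lower at an unadjusted p under 0.05), NF-kappaB genes 0 of 23 (2 and 2), interferon response genes 0 of 19 (1 and 1), MHC class I genes 0 of 21 (2 and 0) and microglial markers 0 of 14 (0 and 0) in limma. Without etoposide library 3 the receptors and ligands gave 5 higher (27.8%) and 4 lower (22.2%), NF-kappaB genes 2 higher (8.70%) and 5 lower (21.7%), and the BCL2 family 3 lower (21.4%), against 9.67% and 11.6% of all genes. Of 5 tested endothelial markers, Mfsd2a, a lipid transporter also found outside endothelium, was the 1 called (20%, against 2.78% of all genes). It read 63.9, 76 and 55.5 FPKM with H-Ras(G12V), 14.7, 14.1 and 18.9 with mCherry, 6.67, 6.12 and 11 with etoposide and 23.4, 19.5 and 36.6 with DMSO, a difference of 3.58 ± 0.38 (SE). Of the defining endothelial markers, Cldn5 read 0 FPKM in 8 libraries and at most 0.10 in the others, while Pecam1, Cdh5 and Kdr were detected in every library at up to 1.11, 3.12 and 4.21 FPKM, with medians of 0.12, 0.51 and 0.55. Across all genes tested, 29.1% had a 95% interval of the difference within 1 log2 unit on either side of 0. For the rest, a missed threshold does not show that the models acted alike.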

How the data were processed

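The authors deposited 1 table of FPKM values per model, with 18223 genes for H-Ras(G12V) and mCherry and 17800 for etoposide and DMSO, per the file headers. Per the submitters' processing notes HISAT, Bowtie2, RSEM and the mouse build mm9 were used, with no version or role stated. Since normalisation was taken as separate for each table, effects were computed inside a table; the models share no control libraries. FPKM keep no stated depth. Steps of low values in genes with a single GENCODE M21 transcript (another build than mm9) gave a rough depth, in units of 1000000 fragments, of 16.0 to 17.0 per library for the first table and 24.8 to 30.2 for the second.

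A pseudocount of 1 was added to each FPKM before taking log2, and limma 3.58.1 (R 4.3.3; eBayes with trend) fitted 1 linear model over 12 libraries, with a spread pooled over the 4 groups and a minimum mean of 1 FPKM in each table. Tests were two-sided, adjusted over all 12179 genes by Benjamini-Hochberg, with a threshold of 0.05. Intervals are 95% intervals of the contrast, not adjusted. Fold changes on this scale understate those of low genes. The fit was tested on simulated data with an equal spread in every library. Root mean square deviations from the group mean ran from 0.13 log2 units in H-Ras(G12V) library 1 to 0.62 in etoposide library 3. The simulation did not cover this unequal spread. The members and the 38 gene lists were chosen with earlier results of these data known. Named genes are 14 fixed genes, up to 12 per direction passing in every fit that leaves out a library, with a highest group mean of at least 5 FPKM, up to 8 with opposite effects, up to 8 per direction with like effects in both models (none qualified), and per list up to 4 called and 2 not called with the narrowest interval; not all are printed, and others are stated as chosen after their values were seen. Promoter sequences are from RefSeq (GRCm38.p6). Alternatives covered pseudocount, filter, scaling, spread, weights, block and left-out libraries. Results for some genes are not reported here.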

Additional observations from a re-analysis of the deposited data

How the results depend on the processing

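The count of 339 genes stayed within 1.5 times under pseudocounts of 0.1 and 5 (319 and 351), both scalings (298 and 337) and a spread estimated within each table (402). It was 599 (544 higher, 55 lower) with no filter and 161 (145 and 16, with 16 in opposite directions) at a mean of at least 5 FPKM, where 17119 and 9180 genes were tested. With mCherry libraries 1 and 2 averaged, since their rank correlation was 0.994, it was 189 (186, 3 and 13), and by the treatment tag 150 (103 and 47). Without mCherry library 3 and etoposide library 3 together it was 3663 (1691, 1972, 614 opposite and 1397 in the same direction), with all 339 among them. Library weights gave 7292 (2848, 4444, 1994 and 3323), but their estimate did not converge. Leaving out 1 library gave 183 to 2587 genes, 180 to 1178 higher, 3 to 1409 lower, 6 to 207 in opposite directions and 0 to 668 in the same direction; the ends at the high side are all without etoposide library 3. The cause of these shifts was not tested. Scaling moved the median of the contrast from -0.07 to -0.10 or -0.05. The groups of the treatment tag are left out of the counts that follow. Of 50 called genes named under the rule, 33 passed in each of up to 23 alternatives and none changed sign. Of 85 not called, 42 passed in at least 1. Medians of 20 of 39 sets, all genes included, kept their sign in every one of these alternatives. With the tag's groups the median was 0.13 over all genes and -0.90 for mitosis, so both changed sign.

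The ID numbers in the labels are shared between groups, and the labels do not say whether same-numbered libraries are paired. Deviations of same-numbered libraries correlated at -0.03, 0.03 and 0.12 in the oncogene model and at -0.26, -0.17 and -0.15 in the etoposide model. With 3 libraries per group these correlations cannot decide whether the libraries were paired. With the number as a replicate block, 267 genes passed, 247 higher and 20 lower, 237 of them among the 339, with 12 in opposite directions and 0 in the same direction.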
